A study of Homo sapiens with 8 samples.

Results

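The cells described here came from monocultures, the cultures whose cell names begin with 2DMono or 3DMono, and morphine was compared with vehicle. They were human neural cells grown from H1, an established line of embryonic stem cells (NIH 0043), in 2-D (2DMono) or 3-D (3DMono) format, and polyA RNA was read cell by cell with split-pool barcoding. Organoids were dissociated with papain, and the labels do not say how 2-D cultures were taken apart. The cells were chosen by their names: 2DMonoAcMor and 3DMonoAcMor, 2 tags each, against 2DMonoVehic and 3DMonoVehic, 2 tags each, which gave 9229 of the 43693 cells of the series. AcMor is read here as morphine and Vehic as vehicle, since morphine is among the treatments in the labels, which speak of untreated cultures and not of vehicle. The labels define neither word and give no dose, no length of exposure, no age of culture and no genotype beyond the line, which is shared by all groups. The 4 tags named AcDop (2577 cells) were used to estimate the spread within a format and to cluster cells, and their class shares are given for comparison.

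A tag is a culture name in front of the cell barcode, and each of the 8 tags was also 1 well of a barcoding round. Whether tags are separate cultures is not stated, so p-values measure the spread between tags, which may be technical, and a culture and its barcoding well cannot be told apart. A tag held 317 to 1959 cells and 5027412 to 58777178 counts, with a median of 8067.5 to 21683 counts per cell. The 2 deepest tags, 2DMonoVehic1 and 3DMonoAcMor1, stand on different sides of the comparison. The median mitochondrial share was 4.19% in 2DMonoVehic1 and 0.717% to 2.1% in the other 7 tags. Between sublibraries 611 barcodes were shared (1262 cells), each within the same tag. As a check of the labelled type, neuronal markers (STMN2, DCX, MAPT, SYT1, SNAP25, GAP43, RBFOX3 and TUBB3) summed to 1565 to 2643 CPM (counts per 1e6 counts of the tag) in the 8 tags.

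Morphine acts mainly through the mu opioid receptor, encoded by OPRM1, which couples to inhibitory G proteins. These lower cyclic AMP, open inwardly rectifying potassium channels and reduce transmitter release, and in the brain the receptor is found on many inhibitory neurons. The results below turned on another gene family, the DLX homeobox factors. DLX1, DLX2, DLX5 and DLX6 lie in 2 gene pairs and direct the making of inhibitory neurons, which release gamma-aminobutyric acid (GABA), in the ventral forebrain. GAD1 and GAD2 make GABA and SLC32A1 loads it into vesicles.

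In GENCODE v29 on GRCh38, DLX1 lies at chr2:172084740-172089677 on the plus strand and DLX2 at chr2:172099439-172102900 on the minus strand, with 9761 bases between them. DLX5 lies at chr7:97020392-97024950 on the minus strand, near DLX6 at chr7:97005548-97011039 on the plus strand. SP9, a zinc finger factor of the same lineage, lies at chr2:174334946-174338492 on the plus strand. The RefSeq promoter table (GRCh38.p14) held 5 of the 14 genes called below: DLX1, DLX2, ADARB2, COLEC12 and CLYBL. The 250 bases before the start were searched on both strands for TGACG, the core of the element bound by cyclic AMP response factors, and for TAATTA, the core bound by many homeodomain factors. On the opposite strand TGACG reads CGTCA and TAATTA reads the same, and the motifs do not overlap each other in the windows shown. TGACG stood in 21.2% and TAATTA in 4.3% of 35116 promoters. Among the 5 genes, DLX2 held 3 matches to TGACG and ADARB2 held 1 match to TAATTA, while DLX1, COLEC12 and CLYBL held neither in this window. The start is that of the RefSeq table, which can differ from GENCODE. The DLX1 window, chr2:172085257-172085506, lies inside the gene as placed above, so the bases before its GENCODE start were not searched. The COLEC12 (chr18:500702-500951) and CLYBL (chr13:99606440-99606689) windows partly overlap their GENCODE genes. The DLX2 and ADARB2 windows are shown because they are the ones with a match. They are written 5′ to 3′ on the strand of the gene, with matches in capitals. DLX2 is chr2:172102901-172103150 and ADARB2 is chr10:1737526-1737775, both on the minus strand. A match is a string of letters and not a shown binding site.
DLX2: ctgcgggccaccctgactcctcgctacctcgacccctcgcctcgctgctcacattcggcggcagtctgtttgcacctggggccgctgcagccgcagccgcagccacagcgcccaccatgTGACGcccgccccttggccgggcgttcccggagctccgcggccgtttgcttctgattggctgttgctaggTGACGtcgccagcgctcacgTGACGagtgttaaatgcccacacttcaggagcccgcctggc
ADARB2: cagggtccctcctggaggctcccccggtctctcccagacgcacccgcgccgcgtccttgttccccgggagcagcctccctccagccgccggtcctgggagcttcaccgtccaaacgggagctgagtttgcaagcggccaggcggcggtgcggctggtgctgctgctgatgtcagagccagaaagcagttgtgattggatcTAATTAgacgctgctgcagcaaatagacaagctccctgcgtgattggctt

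Over both formats, DLX1, DLX2, DLX5, SP9, FGD3, ADARB2 and DSCAML1 rose in the AcMor tags, and COLEC12, CLYBL, KIAA1217 and COL4A6 fell. Counts were summed per tag and tested with the format as a block, by edgeR's quasi-likelihood test with Benjamini-Hochberg adjustment over all genes. Of 22902 genes tested, 14 passed an adjusted p of 0.05 (0.0611% of genes), 9 higher (0.0393%) and 5 lower (0.0218%) in AcMor. In all 14 the 2 AcMor tags lay on one side of the 2 Vehic tags within each format, which was also so for 11.0% of all genes tested. At an unadjusted p under 0.05 stood 2727 genes. The median log2 fold change over all genes was 0.0082. Levels of single genes in this and the next paragraphs are CPM after TMM scaling, a correction for composition, and a log2 fold change compares AcMor with Vehic.

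DLX1 stood at 18.0 and 18.4 CPM in the 2DMono AcMor tags and at 5.24 and 5.68 in the 2DMono Vehic tags. In 3DMono it stood at 30.6 and 37.9 against 6.62 and 7.50. The 4 AcMor tags were all above the 4 Vehic tags, with a log2 fold change of 2.03 ± 0.17 (SE, adjusted p = 0.0026). DLX2 stood at 16.5 and 7.36 CPM against 2.65 and 2.64 in 2DMono, and at 34.6 and 31.9 against 5.17 and 5.76 in 3DMono. DLX2 thus rose by the largest log2 fold change of the genes with a symbol that passed, 2.43 ± 0.25 (adjusted p = 0.0052), although its 2 AcMor tags in 2DMono differed from each other. DLX5 rose by 1.86 ± 0.22 (adjusted p = 0.013), from 2.64 to 5.49 CPM in the Vehic tags to 10.9 to 15.5 in the AcMor tags. DLX6, the partner of DLX5, gave 1.06 ± 0.41 and did not pass (adjusted p = 0.337), on levels of at most 1.3 CPM. Its AcMor tags overlapped the Vehic tags in 2DMono.

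SP9 rose by 2.27 ± 0.32 (adjusted p = 0.036), with 3.53 to 6.74 CPM in the AcMor tags and 0.774 to 1.41 in the Vehic tags. ENSG00000280414 has no symbol in the file and lies across SP9 on the opposite strand (chr2:174334438-174337566, 2621 bases shared). It also rose, by 2.32 ± 0.33 (adjusted p = 0.036). No source used here says if counting used the strand, so reads of these overlapping genes may not have been told apart. FGD3 (chr9:92947451-93036236), an exchange factor for the small GTPase CDC42, rose by 1.74 ± 0.20 (adjusted p = 0.013), with 10 to 17.6 CPM against 3.55 to 4.48. ADARB2 (chr10:1177318-1737476), an RNA-editing family member known as a marker of some cortical interneurons, rose by 0.98 ± 0.13 (adjusted p = 0.025). It stood at 434 and 394 CPM against 230.1 and 261.8 in 2DMono, and at 250.2 and 300.1 against 119 and 118 in 3DMono. DSCAML1 (chr11:117427773-117817525), a neuronal cell adhesion molecule, rose by 0.78 ± 0.12 (adjusted p = 0.04). The long noncoding gene ENSG00000234275 (chr2:6258348-6341782) rose by 1.35 ± 0.18 (adjusted p = 0.025).

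COLEC12 (chr18:316740-500722), a scavenger receptor of the collectin family, fell by 1.40 ± 0.18 on the log2 scale (adjusted p = 0.025). Its AcMor tags stood at 81.3 and 93.7 CPM against 152 and 228 in 2DMono, and at 34.4 and 30.5 against 123 and 84.2 in 3DMono. COL4A6 (chrX:108155607-108439497), a chain of basement membrane collagen, fell by 0.83 ± 0.11 (adjusted p = 0.025), and KIAA1217 (chr10:23694746-24547848), which encodes the human counterpart of the mouse sickle tail protein, fell by 0.93 ± 0.13 (adjusted p = 0.039). CLYBL (chr13:99606669-99897134), a mitochondrial enzyme of citramalyl-CoA breakdown, fell by 0.94 ± 0.13 (adjusted p = 0.035). ENSG00000286757, which has no symbol, fell by 1.39 ± 0.14 (adjusted p = 0.0052). In each of these 5 genes the AcMor tags lay below the Vehic tags of the same format, and the 3DMono tags lay below the 2DMono tags of the same treatment.

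**Figure D1:**
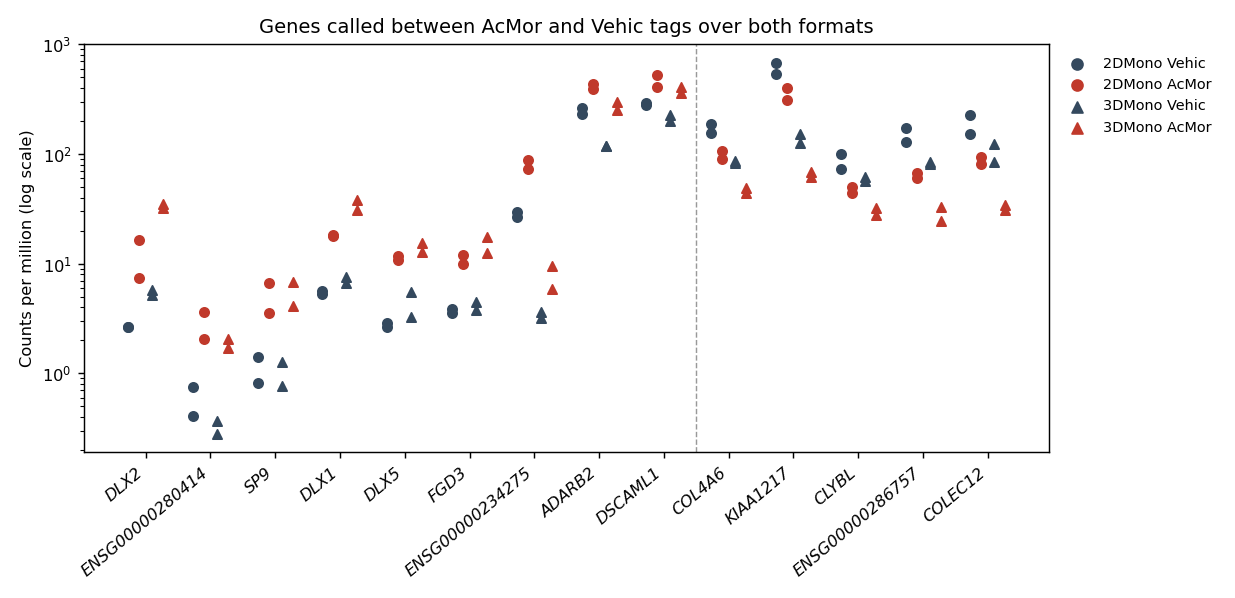
Level of the 14 called genes in the 8 tags, in CPM after TMM scaling on a log axis; circles are 2DMono tags, triangles 3DMono tags, red AcMor and dark blue Vehic, 1 point per tag. Left of the dashed line are the 9 genes higher in AcMor and right of it the 5 lower ones, and red and blue points of the same shape are apart in every gene.

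The number of calls depended on single tags. Without 2DMonoAcMor1 or without 3DMonoVehic1 it was 3, without 2DMonoVehic2 or without 3DMonoVehic2 it was 4, without 2DMonoVehic1 it was 22, without 3DMonoAcMor2 it was 24, without 2DMonoAcMor2 it was 27, and without 3DMonoAcMor1 it was 67. DLX1, DLX2 and ENSG00000286757 passed in each of these 8 fits, with log2 fold changes of 1.92 to 2.09, 2.23 to 2.62 and -1.52 to -1.28. DLX5 passed in 5 of 8, not without 2DMonoAcMor1, 2DMonoVehic2 or 3DMonoVehic1, and ADARB2 in 5 of 8, not without 2DMonoAcMor1, 3DMonoVehic1 or 3DMonoVehic2. FGD3, COL4A6, CLYBL and SP9 passed in 4 of 8, COLEC12, KIAA1217, DSCAML1 and ENSG00000234275 in 3 of 8, and ENSG00000280414 in 2 of 8, each of them not without 2DMonoAcMor1 and not without any of 2DMonoVehic2, 3DMonoVehic1 and 3DMonoVehic2. Calls were also lost without 2DMonoVehic1 (DSCAML1, ENSG00000234275, ENSG00000280414), without 3DMonoAcMor1 (COLEC12) and without 3DMonoAcMor2 (KIAA1217, ENSG00000280414). The highest adjusted p of a called gene with 1 tag left out was 0.277, and no direction changed.

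Within each format alone no gene passed in the main fit. In 2DMono, 0 of 19416 genes were called by edgeR (0%, lowest adjusted p = 0.531), with 1246 at an unadjusted p under 0.05 and 18 called by DESeq2. In 3DMono, 0 of 22112 genes were called by edgeR (0%, lowest adjusted p = 0.135), with 1925 at an unadjusted p under 0.05 and 178 called by DESeq2. Some other edgeR fits of 3DMono called genes, 18 over the 8 tags and 36 with the tag number as a replicate block. In 2DMono both of these gave 0. The genes of a single format named next did not pass and were chosen by their p after the values were seen. In 2DMono the 3 lowest p belonged to DLX6-AS1, DLX5 and DLX1. DLX6-AS1, a noncoding gene that covers DLX6 on the opposite strand (5492 bases shared), stood at 356 and 262 CPM against 96.9 and 94.4 in 2DMono, and at 424 and 959 against 110 and 182 in 3DMono. SCGN, a calcium-binding protein of some interneurons, stood at 11.7 and 10.9 CPM against 3.49 and 3.65 in 2DMono (log2 fold change 1.7 ± 0.28).

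In 3DMono the lowest p belonged to LMO1, a LIM-only cofactor of transcription. It stood at 35.1 and 32.7 CPM in AcMor against 6.90 and 5.58 in Vehic, a log2 fold change of 2.39 ± 0.28 (adjusted p = 0.135). In 2DMono its 4 tags lay between 4.06 and 4.86 CPM, a log2 fold change of 0.11 ± 0.31. CP, the copper carrier ceruloplasmin, gave -2 ± 0.25 in 3DMono and -0.38 ± 0.29 in 2DMono. TBX15, a T-box factor of mesenchyme, gave -2.08 ± 0.29 in 3DMono and -0.02 ± 0.44 in 2DMono. NR3C1, the glucocorticoid receptor, gave -1.22 ± 0.18 in 3DMono and -0.12 ± 0.20 in 2DMono.

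Whether the difference itself differed between formats was tested as an interaction. No gene of 22902 passed by edgeR (0%, lowest adjusted p = 0.337), 1110 stood at an unadjusted p under 0.05, and DESeq2 called 22. Among the lowest p were NTN1, an axon guidance cue, and LMO1. NTN1 stood at 138 and 160.3 CPM against 58 and 64.2 in 3DMono, and at 138 and 139 against 162 and 181 in 2DMono. Its AcMor tags thus lay above Vehic in one format and below it in the other, with an interaction of 1.60 ± 0.21 that did not pass. The others among the 4 lowest p in each direction were GLYCTK-AS1 and SOX1-OT, whose log2 fold change was higher in 3DMono than in 2DMono. In the other direction were ZFPM2-AS1, TGFBR3, SRGAP2-AS1 and LINC02694, whose log2 fold change was positive in 2DMono and negative in 3DMono. The DLX genes gave interactions of 0.53 ± 0.31 (DLX1), 0.41 ± 0.48 (DLX2) and -0.32 ± 0.44 (DLX5).

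The cells were then clustered to see which of them carried these genes. Clustering left out 66 genes with the largest evidence of change, DLX1, DLX2, DLX5, GAD1 and GAD2 included, and gave 25 clusters over the 12 monoculture tags. Clusters 2, 11 and 17 had GAD1, GAD2, DLX1, DLX2 and DLX5 among their markers and were called GABAergic neuron-like. This name rests on markers that themselves differ between the groups. The formats filled it from different clusters: in 2DMono 87% of the class was cluster 11, and in 3DMono 71.3% was cluster 2 and 28.6% cluster 17.

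GABAergic neuron-like cells made up 17% and 16.4% of the AcMor tags against 6.07% and 5.36% of the Vehic tags in 2DMono. In 3DMono they made up 18.7% and 34.3% against 4.94% and 4.79%. The 4 AcMor tags were all above the 4 Vehic tags, and the means were 21.6% ± 8.5 against 5.29% ± 0.58 (SD, n = 4). The difference within formats was 16.3 percentage points, 11 in 2DMono and 21.6 in 3DMono. A two-sided exact permutation test within formats gave p = 0.0556, the smallest that its 36 arrangements allow (adjusted p = 0.25 over 9 classes), so no share could pass 0.05. The AcDop tags gave 13.9% and 7.34% in 2DMono and 16.5% and 4.42% in 3DMono, so tags of the same name differed from each other there.

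**Figure D2:**
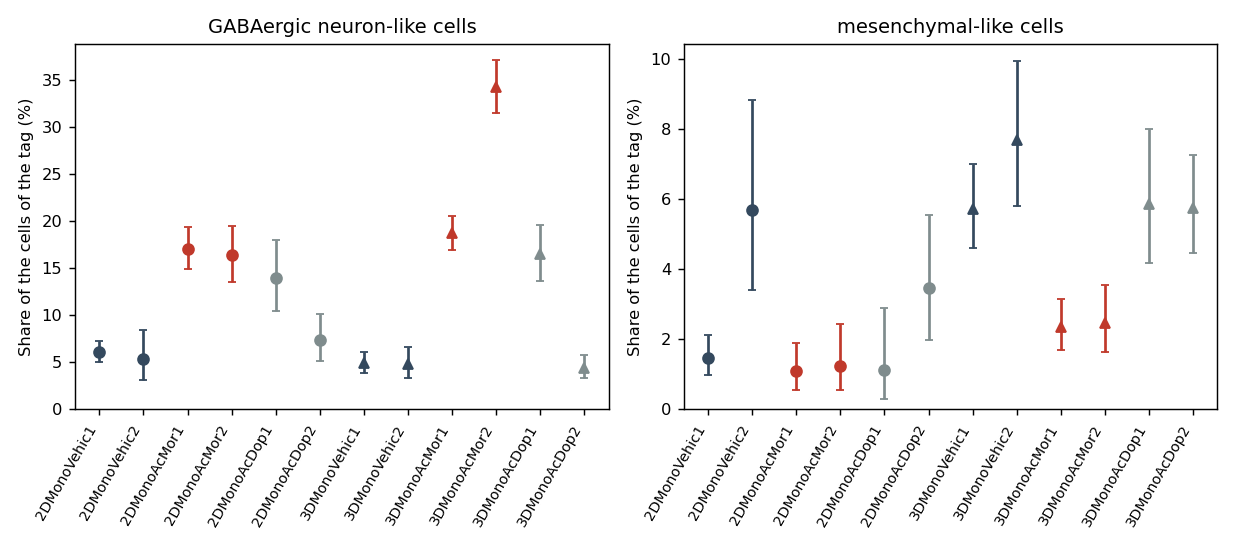
Share of the cells of each tag that were GABAergic neuron-like (left) and mesenchymal-like (right), in percent; points are tags (circles 2DMono, triangles 3DMono; dark blue Vehic, red AcMor, grey AcDop) and bars are exact 95% binomial intervals, which cover counting error only. The AcMor tags lie at 16.4% to 34.3% GABAergic neuron-like cells and the Vehic tags at 4.79% to 6.07%.

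Mesenchymal-like cells (COL1A1, COL1A2, COL3A1, LUM, DCN, PDGFRB, TWIST1, PRRX1) made up less of the AcMor tags, at 1.08% and 1.25% against 1.48% and 5.68% in 2DMono and 2.34% and 2.47% against 5.72% and 7.69% in 3DMono. In 3DMono the class was cluster 16. In 2DMono cluster 23 was lower in AcMor (0.631% and 0.935% against 1.17% and 5.68%) and cluster 16 higher (0.451% and 0.312% against 0.306% and 0%), and 2DMonoVehic2 held 18 cells of the class. The difference was -3.36 points (exact permutation p = 0.0556, adjusted p = 0.25), -5.59 at a finer clustering and -2.31 to -4.41 with 1 tag left out. In 3DMono, progenitor or radial glia-like cells (PAX6, VIM, HES5, HOPX, FABP7) made up 9.52% and 5.11% of AcMor against 12.9% and 12.9% of Vehic. Intermediate progenitor-like cells, with EOMES and NEUROG2 among their markers, made up 7.88% and 5.73% there against 11% and 12.3%. Excitatory neuron-like cells of 3DMono overlapped between groups, at 27.2% and 8.9% against 30.9% and 21.5%. The share of progenitors over both formats reversed to 0.581 points at a coarser clustering, from -2.81 (exact permutation p = 0.333).

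Clusters without a name also differed. Cluster 19, with DLX2, VAX1, LMO1 and DLX1 among its leading genes and 8 of 8 cycling markers, made up 4.41% and 8.11% of 3DMono AcMor tags against 1.69% and 1.6% of Vehic tags. The cycling-like class leaves it out and made up 6.53% and 6.96% there against 8.71% and 9.58%. Over both formats the cycling-like difference was 0.565 points without cluster 19 and 2.95 with the weakly marked clusters named by their best list, which adds cluster 19. Cluster 15, with the progenitor markers PAX6, HES5, HOPX and FABP7, made up 6.31% and 12% against 2.27% and 2.32%. Cluster 12, led by TTR and HTR2C with 7 of 8 cilium markers, made up 1.74% and 4.76% against 7.86% and 8.71%. In 2DMono, cluster 0, which had GFAP and S100B but was led by EFEMP1, CCN2 and TAGLN, made up 13.2% and 18.5% against 28.1% and 47.3%. Cluster 6, which met no list, made up 8.1% and 6.23% against 17.3% and 8.52% there. Cluster 5, with STMN2, SYT1, SNAP25 and GAP43, made up 16.9% and 16.2% of the 2DMono AcMor tags against 14.5% and 3.47%. Cluster 9, led by SLC17A6, an excitatory neuron marker, made up 15.7% and 13.7% against 11.1% and 5.05%. Cluster 21 made up 3.97% and 4.98% against 3.47% and 2.21%. Clusters 5 and 9, outside the GABAergic neuron-like class, were thus also higher in 2DMono AcMor tags. These shares were not tested.

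To compare tags of different depth, cells with at least 5000 counts were thinned to 5000, and cells with fewer were left out. On that footing, the share of cells with a count of DLX1, DLX2, DLX5 or DLX6 was 17.1% and 13.6% against 5.35% and 4.35% in 2DMono. In 3DMono it was 19.5% and 25% against 6.7% and 7.7%. Without thinning the shares were 18.7% to 36.8% in AcMor and 9.78% to 13.9% in Vehic. After thinning such a count was found in 51.7% of GABAergic neuron-like, 12.6% of cycling-like, 4.91% of mesenchymal-like, 3.64% of muscle-like (of 55) and 3.39% of excitatory neuron-like cells (median depths 8618, 12344, 18838, 29902 and 15815 counts). How much of these shares is free RNA was not measured. Thinning left out 9 to 96 cells per tag, and 150 of the 1272 GABAergic neuron-like cells of the 8 tags.

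The comparison was repeated on sums that left out the clusters with GABAergic or DLX markers. A smaller rise of those genes could follow from that choice alone. Without the 3 GABAergic neuron-like clusters and without clusters 19 (with DLX genes among its leading genes) and 21 (led by TAC1 and NXPH1, with GAD1, GAD2, SLC32A1 and DLX5 among its markers; 1644 cells in all, chosen after the data were seen), edgeR called 0 of 21588 genes, with 1761 at an unadjusted p under 0.05. DLX1 then gave 1.61 ± 0.22 and DLX2 1.99 ± 0.29 (adjusted p = 0.209 for both), while ADARB2 gave 0.23 ± 0.23 and DSCAML1 0.31 ± 0.15. Of the genes that fell, COLEC12 gave -1.16 ± 0.18, ENSG00000286757 -1.15 ± 0.17, CLYBL -0.76 ± 0.15, KIAA1217 -0.69 ± 0.15 and COL4A6 -0.58 ± 0.13. In these remaining cells the thinned share with a DLX count was 8.59%, 6.4%, 7.31% and 8% in the AcMor tags and 2.69%, 2.49%, 2.8% and 4.43% in the Vehic tags. The share was thus higher in all 4 AcMor tags, and the part of free RNA in it was not tested. Among excitatory neuron-like cells of 3DMono it was 4% and 7.14% against 1.3% and 5.63%, which overlapped.

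Within GABAergic neuron-like cells, edgeR called 0 of 11462 genes (0%, lowest adjusted p = 0.0937 for PTPRK), with 649 at an unadjusted p under 0.05. DLX1 gave 0.24 ± 0.23, DLX5 0.37 ± 0.26, GAD1 0.51 ± 0.17 and GAD2 0.39 ± 0.16 there, while DLX2 gave 1.04 ± 0.38 (adjusted p = 0.753). The thinned share of these cells with a DLX count was 57.9% and 54% against 44.1% in the 2DMono tags with 20 or more such cells, and 54.4% and 46.2% against 59.2% and 63% in 3DMono. In 2DMono, thinning left out 37 of 189 and 42 of 105 of these cells in AcMor and 8 of 119 in 2DMonoVehic1. Without thinning the order there turned, at 66.7% and 58.1% against 70.6%, and 3DMono gave 79.4% and 58.35% against 61.8% and 69.7%. The edgeR fit of these cells was added after the data were seen, because 2DMonoVehic2 had 17 such cells, below the minimum of 20. In whole tags, fewer cells of a type and less RNA per cell cannot be told apart.

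**Figure D3:**
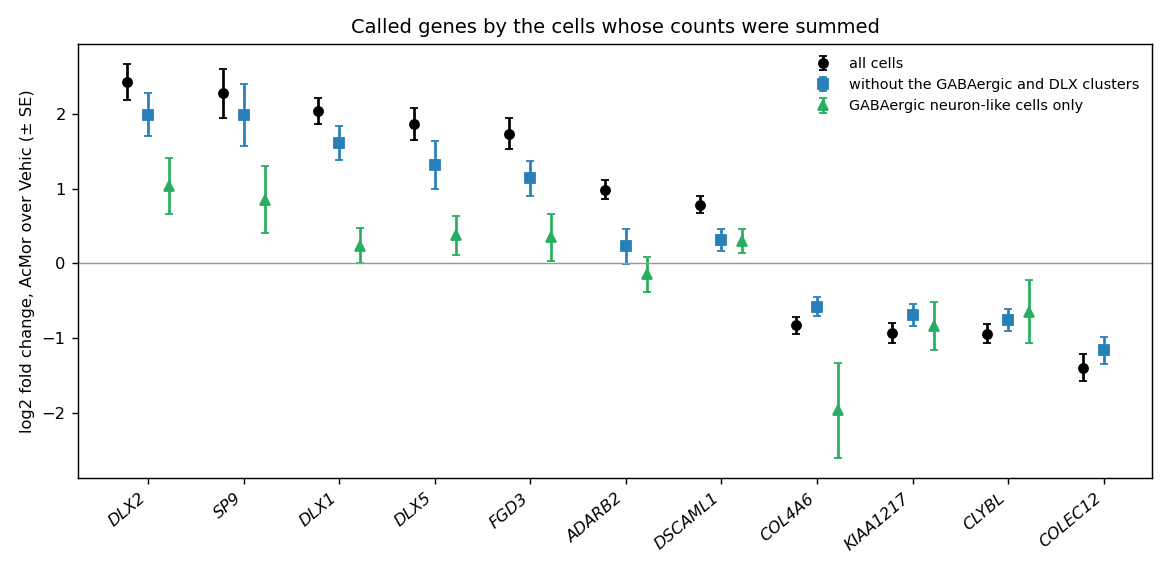
Log2 fold change of AcMor over Vehic with its SE for the 11 called genes with a symbol, from counts summed over all cells (black circles), over cells outside the GABAergic and DLX clusters (blue squares) and over GABAergic neuron-like cells (green triangles). DLX1 stands at 2.03, 1.61 and 0.24 in the 3 fits; COLEC12 was below the count filter in GABAergic neuron-like cells.

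The other fixed GABAergic markers were higher in AcMor without passing. SLC32A1, the vesicular transporter, gave 2.00 ± 0.39 (adjusted p = 0.095), GAD2 1.71 ± 0.38 (adjusted p = 0.156) and GAD1 1.63 ± 0.38 (adjusted p = 0.17). GAD1 stood at 79.2 and 77.5 CPM against 42 and 41 in 2DMono, and at 63.5 and 162.7 against 18 and 26.8 in 3DMono. Of 7 tested members of this list, 3 were called higher, where 0.0393% of all genes were, and 6 had AcMor tags above Vehic tags in both formats, where 5.05% of all genes did. LHX6, a marker of medial ganglionic eminence interneurons, did not pass the count filter. The median log2 fold change of the list was 1.86, beside 0.0082 over all genes. The list was chosen with earlier results of these data known.

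The opioid system itself showed no called gene. Of 8 genes for opioid receptors and peptides, 7 were tested and 0 were called (0.0611% of all genes), with a median of -0.26. OPRM1, the receptor for morphine, stood at 5.9 and 4.27 CPM against 5.69 and 4.87 in 2DMono, and at 6.66 and 10.3 against 6.97 and 9.05 in 3DMono. The tags overlapped in both formats, and the log2 fold change was 0.01 ± 0.22 (adjusted p = 0.99), on 24 to 317 counts per tag. OPRK1, the kappa receptor, gave -0.29 ± 0.27, OPRD1, the delta receptor, -0.26 ± 0.41, and OPRL1, the nociceptin receptor, 0.32 ± 0.47. PENK, the precursor of enkephalins, stood at 2.33 and 4.57 CPM against 10 and 5.48 in 2DMono. In 3DMono it stood at 0.504 and 0.274 against 1.69 and 0.366, and its log2 fold change of -1.33 ± 0.41 did not pass (adjusted p = 0.235). POMC and PNOC were at most 1.51 CPM in every tag, and PDYN did not pass the count filter.

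Genes that carry the receptor's signal were also without a call, 0 of 25 for coupling and desensitisation and 0 of 28 for cyclic AMP signalling. Over all genes 0.0611% were called, a share at which lists of this size mostly hold no call. In the first list, GNAO1, an inhibitory G protein subunit, gave 0.39 ± 0.14 and GRK2, a kinase that desensitises the receptor, 0.66 ± 0.22. GRK2 was the 1 member of 25 above Vehic in both formats and GNAI3, RGS4 and RGS9 were the 3 below, beside 5.05% and 5.99% of all genes. GRK2 stood at 18.5 and 16.5 CPM against 12.5 and 15.6 and at 26.7 and 14.7 against 9.99 and 11.6. RGS4, which shortens G protein signals, gave -1.05 ± 0.32 on levels under 3 CPM. In the second list CRTC2, a coactivator of CREB, gave 0.91 ± 0.23 and CREM, a cyclic AMP response factor, -0.38 ± 0.12. PDE7B, a cyclic AMP phosphodiesterase, gave -0.73 ± 0.20. Medians of the lists were 0.08 and 0.06.

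Among 21 tested immediate early genes, which neurons switch on within minutes of stimulation, 0 passed over all cells, where 0.0611% of all genes did. EGR1 stood at 76.1 and 66.1 CPM against 57.7 and 43 in 2DMono and at 281 and 218 against 129 and 109 in 3DMono. Its AcMor tags were above Vehic in both formats, with a log2 fold change of 0.78 ± 0.16 (adjusted p = 0.096). EGR3 gave 0.98 ± 0.27 and stood at 11.5 and 14 CPM against 4.68 and 5.21 in 3DMono. FOS gave 0.07 ± 0.19 and overlapped in 2DMono. NPAS4, an activity-dependent factor, stood at 16.6 and 11 CPM against 2.18 and 3.29 in 3DMono but overlapped in 2DMono. HES1, a target of Notch signalling, gave -0.94 ± 0.25. Of the list, 4 genes lay above and 1 below Vehic in both formats, beside 5.05% and 5.99% of all genes. The list median was -0.14 in 2DMono, with 8 of 19 tested genes positive, and 0.34 in 3DMono, with 15 of 21.

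**Figure D4:**
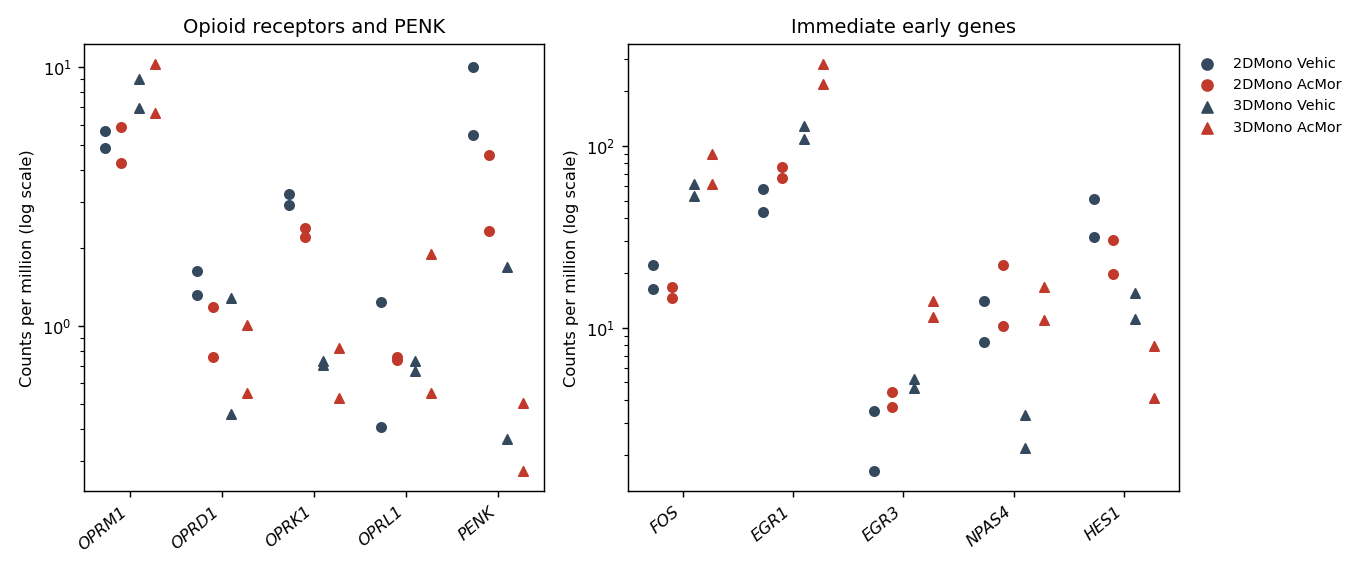
Level of 4 opioid receptor genes and PENK (left) and of 5 immediate early genes (right) in the 8 tags, in CPM after TMM scaling on log axes, with colours for treatment and shapes for format. OPRM1 overlaps between treatments in both formats, while EGR1 of the AcMor tags lies above Vehic in both, at 218 to 281 against 109 to 129 in 3DMono.

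Cycling-like cells were the single class with 20 or more cells in all 8 tags. The formats filled it from different clusters, cluster 7 in 2DMono and cluster 8 in 3DMono. In cycling-like cells edgeR called 3 of 13283 genes (0.0226%), 1 higher and 2 lower. EGR1 rose by 1.22 ± 0.17 (adjusted p = 0.011), at 36.2 and 65.4 CPM of the class against 23.8 and 22.1 in 2DMono and at 662 and 557 against 261 and 268 in 3DMono. The 2DMono tags held 11 to 80 counts of EGR1. It passed in 6 of 8 fits that left out 1 tag, not without 3DMonoAcMor1 or without 3DMonoVehic1 (highest adjusted p = 0.093). PDGFRA, a growth factor receptor of mesenchyme and oligodendrocyte precursors, fell by 2.47 ± 0.41 on the log2 scale (adjusted p = 0.042). It passed in 2 of 8 such fits, not without any 2DMono tag, 3DMonoAcMor1 or 3DMonoVehic1 (highest adjusted p = 0.246), and its 3DMono tags held 1 to 20 counts. The third gene, ENSG00000241956, has no symbol and passed in 1 of 8.

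Classes were also fitted within a format, which was added after the data were seen. In cycling-like cells of 2DMono 2 of 9315 genes (0.0215%) were called, both lower and without a symbol. In cycling-like cells of 3DMono 5 of 11829 genes (0.0423%) were called. Among them EGR1 rose, and TRPM3, a cation channel, and ERBB4, a neuregulin receptor, fell. TRPM3 stood at 13.8 and 15.8 CPM against 142 and 223, a fall of 3.50 ± 0.41 on the log2 scale (adjusted p = 0.0056), and ERBB4 fell by 2.48 ± 0.33 (adjusted p = 0.0056). TRPM3 was also among the leading genes of cluster 12, which made up 1.74% and 4.76% of the 3DMono AcMor tags against 7.86% and 8.71% of Vehic tags, and over all cells of 3DMono it stood at 142 and 480.5 CPM against 979 and 1205. The part of RNA from those cells in its fall was not tested. In progenitor or radial glia-like cells of 3DMono 1 of 11224 genes (0.00891%) was called. In intermediate progenitor-like cells LINC02163 was the 1 gene called of 10719 (0.00933%), with 4 and 0 counts in AcMor against 52 and 43 in Vehic. No gene was called by edgeR in excitatory (1026 at an unadjusted p under 0.05), glycinergic (325), mesenchymal (527) or GABAergic neuron-like cells (687) of 3DMono.

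Marker lists of other cell types differed beside the DLX genes, and their calls compare with 0.0611% of all genes. General neuron markers were positive in 8 of 8 with a median of 0.40 and 0 called, and 3 had AcMor tags above Vehic tags in both formats, beside 5.05% of all genes. They summed to 2643 and 2350 CPM against 1834 and 1565 in 2DMono and overlapped in 3DMono, at 2070 and 1918 against 2239 and 1924. Glycinergic neuron markers (5 tested, 0 called, median 0.26) summed higher in AcMor in both formats. Their sums were 131.9 and 119.9 CPM against 114.4 and 68.1 in 2DMono, and 47.8 and 62.6 against 31.5 and 38.5 in 3DMono. These sums are without TMM scaling, and 0 of the 5 markers had AcMor tags above Vehic tags in both formats. In 2DMono 2 were tested, 1 of them positive, with a median of -0.16. Glycinergic neuron-like cells made up 1.08% and 0.935% against 1.07% and 1.26% in 2DMono, and 2.83% and 3.52% against 2.99% and 3.48% in 3DMono. All 8 mesenchymal markers had a negative log2 fold change, with a median of -1.06 and 0 called, led by DCN at -1.34 ± 0.28 (adjusted p = 0.104) and PRRX1 at -1.13 ± 0.22 (adjusted p = 0.095). Their summed level was 591 and 947 CPM against 1020 and 1579 in 2DMono, and 323 and 166 against 582 and 357 in 3DMono. Of 17 extracellular matrix genes, 16 were negative with a median of -0.49 and 0 called. LAMB1, a laminin chain, stood at 128 and 151 CPM against 172 and 206 in 2DMono and at 50.4 and 59.4 against 132 and 135 in 3DMono (-0.86 ± 0.17, adjusted p = 0.095). COLEC12 and COL4A6 fell beside these lists, and the part of fewer mesenchymal-like cells in their fall was not tested. Within mesenchymal-like cells of 3DMono, COLEC12 gave -0.07 ± 0.30 and COL4A6 -0.13 ± 0.53. In cycling-like cells over both formats they gave -1.66 ± 0.64 and -0.17 ± 0.24, and in excitatory neuron-like cells of 3DMono -1.09 ± 0.65 and -0.07 ± 0.65. COL4A6 gave -1.96 ± 0.64 in GABAergic neuron-like cells over both formats. In progenitor or radial glia-like and intermediate progenitor-like cells of 3DMono it gave -0.06 ± 0.22 and -0.01 ± 0.34. None of these passed.

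Choroid plexus markers, which the secretory epithelium of the ventricles makes, had 8 of 8 negative log2 fold changes and 0 calls. Their sum was 40.1 and 240.5 CPM against 882 and 692 in 3DMono, and TTR, the thyroid hormone carrier, gave -4.07 ± 1.17 (adjusted p = 0.261). Cilium markers were also negative in 8 of 8, and 4 had AcMor tags below Vehic tags in both formats, beside 5.99% of all genes. Of 8 dopaminergic markers 4 were tested and 0 called, with 1 positive and a median of -0.17, and 1 of the 4 had AcMor tags below Vehic tags in both formats, beside the same 5.99%. That gene was LMX1A, a factor of midbrain and roof plate, at 108 and 105 CPM against 194 and 285 in 2DMono and at 8.25 and 39.2 against 68 and 81.4 in 3DMono (-1.42 ± 0.43, adjusted p = 0.263), while TH, which makes the dopamine precursor, was at most 0.231 CPM in every tag. The list summed, without TMM scaling, to 115.9 and 115.2 CPM against 178 and 293.5 in 2DMono, and to 19.9 and 55.3 against 96.8 and 103.6 in 3DMono. LMX1A was most of this sum except in 3DMonoAcMor1. In each format alone 1 tested marker had AcMor tags above Vehic tags and 1 had them below.

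**Figure D5:**
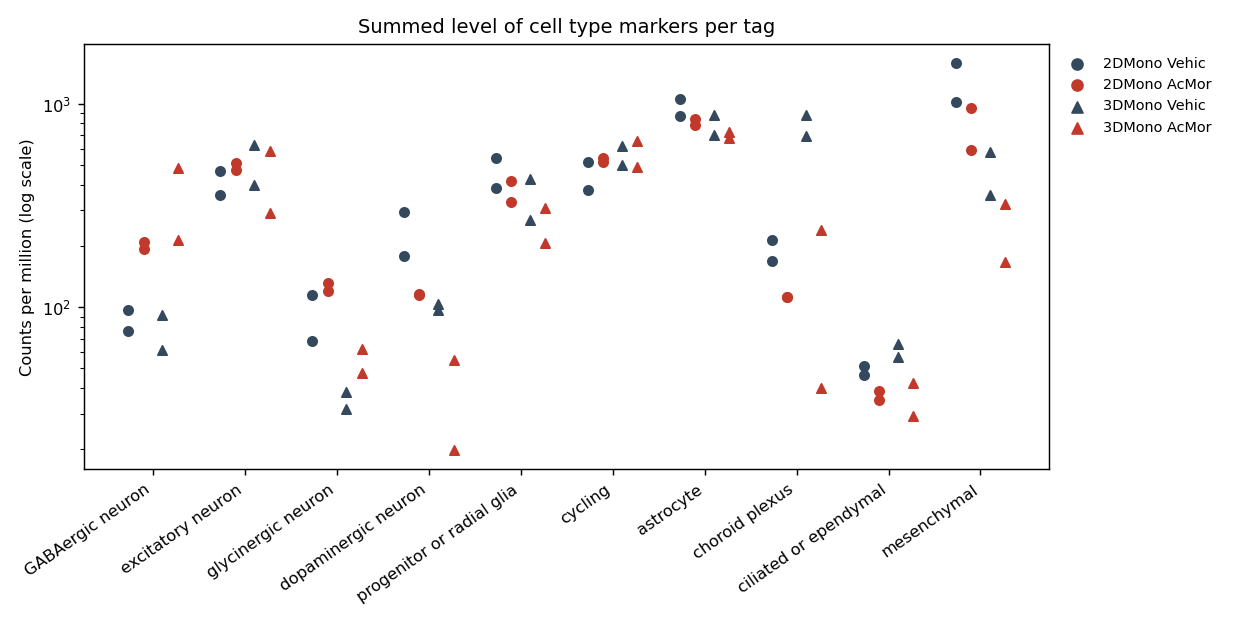
Summed level of 10 lists of cell type markers in the 8 tags, in CPM of the tag total on a log axis, with colours for treatment and shapes for format. The AcMor tags lie above Vehic in both formats for GABAergic neuron markers, at 194 to 481 against 61.5 to 97.1, and for glycinergic neuron markers. They lie below Vehic in both formats for dopaminergic, choroid plexus, cilium and mesenchymal markers.

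Of 18 tested regional patterning genes 3 were called, DLX1, DLX2 and DLX5, where 0.0611% of all genes were, and the remaining lists held no called gene. All 13 mitochondrially encoded genes had a negative log2 fold change, with a median of -0.34. AcMor tags lay below Vehic tags for 10 of 13 in 3DMono (median -0.49), beside 3783 of all 22112 genes, and for 1 of 13 in 2DMono (median -0.32), beside 4639 of 19416. In 2DMono both the highest and the lowest mitochondrial share were in Vehic tags (4.19% and 0.717%). In 3DMono the median share per cell was not lower in AcMor, at 1.33% and 1.95% against 1.3% and 1.93% in Vehic. The part of RNA quality in the falls of these genes was not tested. Glucocorticoid response genes had a median of -0.38 over 11 tested, with KLF9 at -0.59 ± 0.16. Heat shock chaperones were negative in 11 of 12, with a median of -0.30. Inflammatory, interferon, oxidative stress, hypoxia, sterol synthesis, p53 and neurotrophic lists had medians between -0.19 and -0.05 over both formats. The formats differed in sign for sterol synthesis (-0.44 in 2DMono and 0.18 in 3DMono) and the inflammatory list (0.15 and -0.34). They also did for neuropeptides (0.53 and -0.19), glutamate receptors (-0.04 and 0.20), immediate early genes (-0.14 and 0.34) and opioid genes (-0.37 and 0.02). None of these differences was tested. Integrated stress response, glutamate receptor, GABA and glycine receptor, synaptic vesicle, neuropeptide, dopamine system and cell cycle lists had medians between 0.03 and 0.33. GRM8, an inhibitory glutamate receptor, stood at 177 and 227 CPM against 334 and 412 in 2DMono and at 80.1 and 184 against 444 and 435 in 3DMono, a log2 fold change of -1.31 ± 0.27 that did not pass (adjusted p = 0.12).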

How the data were processed

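The authors deposited a table of expected counts per gene and cell. Salmon 1.7.0, alevin, Seurat 4.1.1 and the build hg38 are named, with no role, in the submitters' processing notes. Expected counts are estimates that need not be whole (54.3% of entries are), and they were rounded after summing. All 12 monoculture tags were read from the cell names (text before the barcode kit marker), since the 8 GEO samples are sublibraries of 1 pool with all treatments in each. In the 8 tags the fewest genes per cell was 1617 and the highest mitochondrial share 10%, while no source used here names the filters on cells or the annotation.

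Counts were summed per tag and tested with edgeR 4.0.16 (TMM scaling, filterByExpr, robust quasi-likelihood, R 4.3.3). SE is the log2 fold change divided by the root of F. Both formats were fitted on 8 tags with the format as a block, and each format on its 6 tags with AcDop. DESeq2 1.42.0 and limma 3.58.1 (log2 of the value plus 0.5) were alternatives, and the tests were tried on simulated data. Cells were clustered (Python 3.11.15, scikit-learn 1.9.0, leidenalg 0.10.2) on 2000 variable genes without 66 genes, with 30 components, 20 neighbours and resolution 0.8. Clusters took a name from 3 or more markers, at least 40% of a list, each at least 2-fold higher and in at least 10% of cells. They stayed unnamed where another list had more markers among the top 10 genes by fold (clusters 12 and 19), where at most 50% of the list was met with none in that top 10 (clusters 5, 15 and 21), where over 50% of cells were called doublets, or, for cluster 0, because TAGLN and CCN2 led it. This naming rule was set after clusters were seen. Doublets simulated within a tag called 836 of 9229 cells, which were kept. Of the simulated doublets 49.7% lay above the threshold. Intervals of shares are exact (Clopper-Pearson, 95%) and cover counting error only.

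Named genes were those called over both formats with tags apart, up to 12 in each direction, the 4 lowest p of the interaction in each direction, 3 per direction in a class, and all opioid genes. The 23 gene lists and 19 marker lists, and the comparison itself, were chosen with earlier results of these data known, so no list is given a test of its own. Symbols are those of the file, and some genes are not reported here. Positions come from GENCODE v29, which held 13 of the 14 called genes.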

Additional observations from a re-analysis of the deposited data

Results flagged for a closer look

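Values that stood apart were looked for among the called genes, the opioid genes and the class shares. The cut-off for a single tag (Dixon's 95% critical value) is set so that chance marks about 1 in 20 groups, and the groups of 4 tags here mix the formats. GABAergic neuron-like cells made up 34.3% of 3DMonoAcMor2, far from 16.4%, 17% and 18.7% in the other AcMor tags. Without that tag the difference from Vehic was 12.4 points in place of 16.3. OPRL1, the nociceptin receptor, stood at 1.89 CPM in 3DMonoAcMor1, far from 0.548, 0.736 and 0.755 in the other AcMor tags. POMC, the precursor of beta-endorphin, moved opposite ways in the formats: the mean of AcMor minus that of Vehic was -0.599 CPM in 3DMono and 0.308 CPM in 2DMono, and the tags of the treatments did not overlap in either. The interaction for POMC in the fit over all genes was -1.25 ± 0.65 and did not pass (edgeR, adjusted p = 0.916), and its levels were at most 1.51 CPM.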

How the results depend on the processing

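Leaving out 1 tag in turn moved the calls over both formats between 3 and 67, those in 2DMono between 0 and 3, in 3DMono between 0 and 400, of the interaction between 0 and 13 and in cycling-like cells between 0 and 5. In 3DMono alone, 400 genes were called without 3DMonoAcMor2, 44 without 3DMonoVehic1, 28 without 3DMonoAcMor1 and 0 without 3DMonoVehic2. A group left with 1 tag is assumed to vary like the other groups. Without a filter on low counts there were 1005 calls over both formats, 188 in 2DMono, 747 in 3DMono and 190 for the interaction. DESeq2 called 507, 18, 178 and 22, and 13 of the 14 edgeR calls were among its 507. Over both formats, a minimum of 5 CPM gave 7, the fit of 12 tags 2, mean CPM per cell with limma 32, and leaving out the GABAergic and DLX clusters 0. The 8-tag fit gave 18 in 3DMono. The cause of these shifts was not tested. Tag numbers were not taken to pair the tags, since the labels do not say that they do and 2 tags a group cannot settle it: deviations of AcMor and Vehic tags of the same number correlated at 0.05 in 2DMono and 0.18 in 3DMono. With the number as a replicate block, 76 genes were called over both formats, 0 in 2DMono and 36 in 3DMono.

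Other scaling, no robust option and removed doublets gave 15, 13 and 18 calls over both formats. DLX1 and DLX2 passed in 17 of 18 alternatives, and no called gene reversed. The share of GABAergic neuron-like cells stayed 12.4 to 20.2 points higher in AcMor in 12 alternatives. Shares that reversed were those of progenitors at resolution 0.4 (0.581 points) and with weakly marked clusters named by their best list (0.593), and of cycling-like cells at resolution 1.2 (-0.976). With 1 tag left out, cycling-like cells reached from -1.31 to 2.44 points, astrocyte-like from -0.328 to 0.114 (-7.82 at resolution 1.2, beside -0.107), excitatory from -8.7 to 0.472, glycinergic from -0.284 to 0.0648 and muscle-like from -1.07 to 0.295. Depth limits genes of low counts, such as PNOC, which was under 1 CPM in every tag.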
